A study of Mus musculus with 8 samples.

Results

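The signalling chain that runs from the receptors KIT and EPOR to STAT5 was examined in S0 cells through 10 genes, chosen by name as the 2 receptors, the KIT ligand, JAK2, both STAT5 proteins and 4 STAT5 targets that act in feedback. All 10 were found among the 52636 genes of the count table, and all 10 passed the low-count filter that left 17378 genes to be tested. Within the chain the receptors moved in opposite directions. Kit was 2.16-fold lower and Epor 1.38-fold higher in DKO than in WT, the feedback inhibitors Socs2 and Socs3 were 2.03-fold and 2.93-fold higher, and Stat5b was 1.27-fold lower. Kitl, Jak2, Stat5a, Cish and Pim1 did not pass the test.

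S0 cells are the cells of the fetal liver that lack the lineage markers of the sort, CD71 and Ter119, and they were isolated by FACS from embryos at E12.5. RNAseq was done on 4 WT libraries and on 4 libraries of DKO embryos, which carried a whole-body knockout of both Vps13a (the tm1d allele, from FLP and then β-actin-Cre recombination) and Vps13c, in the C57BL/6J background. The parents described for the DKO embryos were Vps13a+/-/Vps13c-/-, so that their litters held no WT embryo and the controls here also differ from DKO in Vps13c. Neither KIT nor EPOR was used in the sort. The labels do not say that each library is a separate embryo, and p-values then measure only the spread between these libraries.

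KIT is a receptor tyrosine kinase whose ligand, stem cell factor, keeps early blood progenitors alive and dividing. EPOR, the erythropoietin receptor, takes over as erythroid progenitors mature, and it has no kinase of its own. JAK2 bound to EPOR phosphorylates STAT5A and STAT5B, which enter the nucleus and switch on their targets. Among these are CIS (the product of Cish), SOCS2 and SOCS3, which dampen cytokine receptors, and the kinase PIM1, which favours survival. In the fetal liver both receptors are needed to make red cells.

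The libraries held 36981439 to 50886469 counts. Vps13a was lower in every DKO library (607 to 1039 normalized counts) than in any WT library (1825 to 2109), while Vps13c, counted along its full length, overlapped (518 to 1088 against 504 to 664), so that the counts do not check the Vps13c label. A normalized count is a raw count scaled to the mean of the TMM-corrected library sizes. The Y-linked gene Ddx3y was at 2911 to 3354 in WT and at 2516 in DKO replicate 3, but at 41.0 or less in the other DKO libraries, so that sex and genotype were not balanced. Replication-dependent histone genes took 0.0477% to 0.0525% of the counts in WT and 0.101% to 0.116% in DKO. DKO replicate 1 stood apart from the other DKO libraries by its summed markers of granulocytes and monocytes (5399 normalized counts, against 30812 to 45776) and of mesenchyme (48978, against 14310 to 22266). The part of these differences in the results was not tested, and results are given below without DKO replicate 1 and for DKO replicate 3 alone. The latter are given as fold changes with no p, since the spread of a lone library would have to be borrowed from the WT libraries, which differed less from each other (chi-square per gene of 18.5 to 42.0) than the DKO libraries did (56.0 to 129).

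With edgeR's quasi-likelihood test over all 17378 genes and an adjusted p under 0.05, 3 of the 10 members rose in DKO, beside 10.7% of all genes tested, and 2 fell, beside 10.8%. In either direction 5 of 10 passed, beside 21.6%. Adding a log2 fold change beyond 1, the second threshold of the study, left Socs2 and Socs3 higher (6.19% of all genes) and Kit lower (2.43%). The median log2 fold change of the members was 0.18 and that of all genes tested 0.03. All 4 DKO libraries exceeded all 4 WT libraries for Epor, Socs2 and Socs3 (13.5% of all genes) and lay below all of them for Kit, Stat5a and Stat5b (14.6%). For groups that do not overlap, the exact two-sided permutation test of 4 libraries against 4 always gives p = 0.0286. For these members it only restates the separation. The count of members that rose was 4 without DKO replicate 1, where Pim1 joined. Cish made it 4 with DESeq2, upper-quartile scaling, at least 10 counts in every library or protein-coding genes only. Cish also passed without DKO replicate 2 or 3. The count that fell was 1 instead of 2 without WT replicate 1, 2 or 4, with upper-quartile scaling and with the replicate number as a block, each time through the loss of Stat5b. With DESeq2 it was 3, as Stat5a joined.

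**Figure D1:**
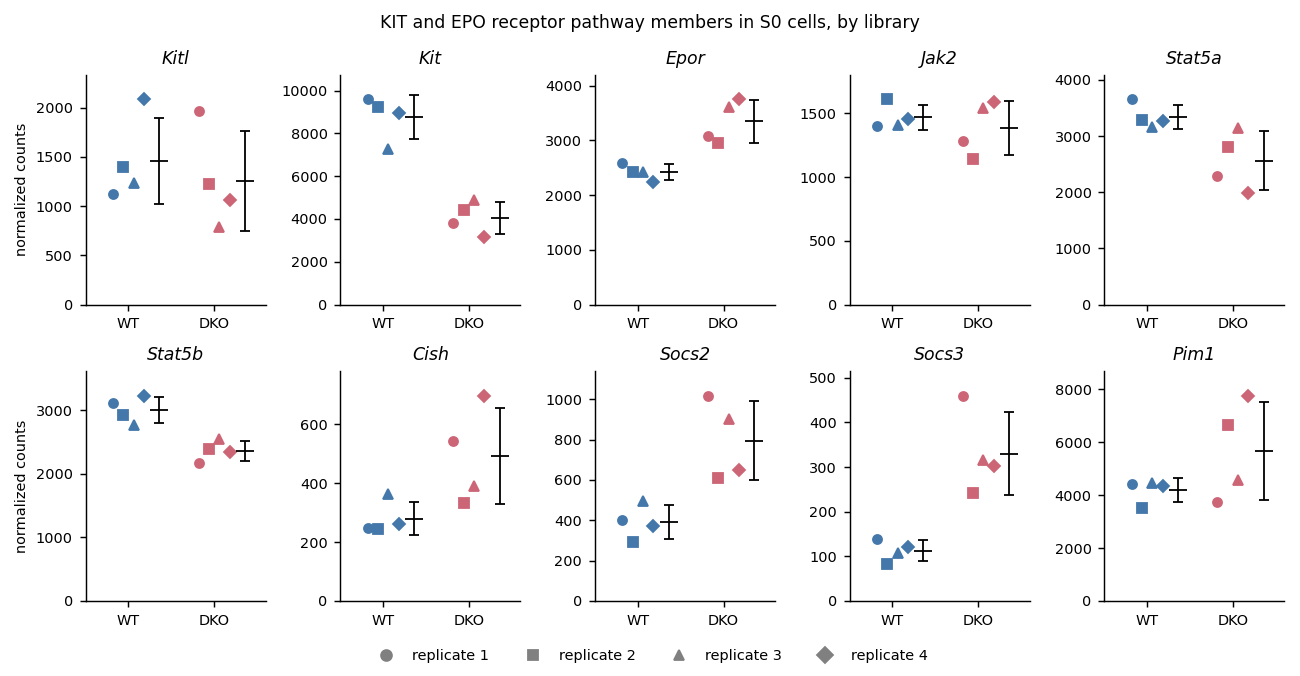
Normalized counts of the 10 members in each library, with WT in blue, DKO in red, a marker shape for each replicate number, and the mean ± SD of 4 libraries as black bars on linear axes from 0. Kit falls from 7287 or more in WT to 4871 or less in DKO, while Epor, Socs2 and Socs3 lie higher in every DKO library.

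Kit (ENSMUSG00000005672.12, GRCm38 chr5:75574916-75656722, plus strand) had 9598, 9211, 7287 and 8958 normalized counts in WT replicates 1 to 4 and 3795, 4436, 4871 and 3162 in DKO replicates 1 to 4. The groups were far apart, with the lowest WT library well above the highest DKO library. For Kit, edgeR gave a log2 fold change of -1.11 ± 0.14 (SE, adjusted p = 0.00239). It was -1.07 without DKO replicate 1 (edgeR adjusted p = 0.00247) and -0.87 with DKO replicate 3 as the only DKO library. In bulk samples, fewer cells that carry Kit and less Kit RNA per cell cannot be told apart.

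Epor (ENSMUSG00000006235.6, chr9:21958897-21963506, minus strand) stood at 2587, 2430, 2426 and 2235 normalized counts across WT replicates 1 to 4 and at 3079, 2948, 3613 and 3753 across DKO replicates 1 to 4. Its WT libraries lay close together, with a coefficient of variation of 5.96%, and every DKO library was above them. For Epor, edgeR gave a log2 fold change of 0.47 ± 0.10 (SE, adjusted p = 0.0123). The change was smaller than that of Kit but held in each fit that left out 1 library, where the adjusted p reached at most 0.0435.

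The balance between the receptors was then compared within each library, where the scaling of the libraries has no part. The ratio of Kit to Epor counts, not corrected for gene length, was 3.71, 3.79, 3.0 and 4.01 in WT and 1.23, 1.5, 1.35 and 0.842 in DKO. On the log2 scale its mean was 1.85 ± 0.18 over the WT libraries and 0.27 ± 0.36 over those of DKO (SD, n = 4 each), a difference of -1.58. Since Kit was below and Epor above WT in every DKO library, the ratio had to separate the groups, and it is given as a description with no test. The ratio of Kit to Gata1, an erythroid transcription factor, was -0.01 ± 0.15 for WT and -1.01 ± 0.38 for DKO on the log2 scale (SD, n = 4 each), a difference of -1.0 (exact two-sided permutation test, p = 0.0286). Kit was therefore lower in DKO also when set against this 1 erythroid gene in the same library. Gata1 itself changed little (log2 fold change -0.10, edgeR adjusted p = 0.687), so the ratio largely repeats the fall of Kit. The permutation p of the ratio is the smallest that 4 libraries against 4 can give.

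Cell type markers moved beside Kit. Counts of markers that passed, here and in later lists, stand beside 10.7% of all genes tested that rose and 10.8% that fell. The summed level of 12 markers of early stem and progenitor cells was 61902 to 78457 in WT and 25497 to 38736 in DKO, as normalized counts, with 5 markers lower (Cd34, Flt3, Hlf, Myb and Adgrg1) and 0 higher by the edgeR test. The groups did not overlap. Mast cells also carry KIT. Of their 10 markers, Mcpt4, Tpsab1, Fcer1a and Mrgprb1 were at 0 in every library, and the sum, mostly from Cpa3, was 4668 to 7662 in WT and 656 to 4233 in DKO. Without Cpa3 the sums overlapped, with 1511 to 3055 in WT and 279 to 1760 in DKO. Among the DKO libraries, replicates 1 and 4 had the lower Kit (3795 and 3162 normalized counts). They also had the lower sums of progenitor markers (25497 and 31369) and of mast cell markers (656 and 2158). Kit was lowest in replicate 4, and both sums were lowest in replicate 1. The 10 megakaryocyte markers overlapped between the genotypes, with sums of 65890 to 77003 in WT and 45956 to 133344 in DKO. The part of these cells in the fall of Kit was not tested.

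For Epor, the marker list nearest to it did not separate the genotypes. The 12 erythroid markers summed to 52783 to 60346 in WT and 45449 to 68226 in DKO, as normalized counts, with 2 higher (among them Zfpm1), 0 lower and 10 not past the test. In DKO, replicates 1 and 2 had the lower erythroid sums (48741 and 45449, both under every WT library) and also the lower Epor, and replicates 3 and 4 had the higher sums (67911 and 68226) and the higher Epor. The part of the erythroid share in the level of Epor was not tested.

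The promoter of Epor is shown because a GATA motif lies close to its start, along with those of Cish and Socs3, the members whose promoters held a STAT motif. The windows run from 250 bases before to 50 bases from the start site on, on the strand of the gene, and come from RefSeq (GRCm38.p6), where 9 of the 10 members were matched. Socs2 had no window, so its promoter was not searched for motifs. Capitals mark AGATAA, read on either strand, in Epor (chr9:21963527-21963826), and TTCNNNGAA, the palindromic element that STAT dimers recognize, in Cish (chr9:107296409-107296708) and Socs3 (chr11:117969317-117969616).
Epor: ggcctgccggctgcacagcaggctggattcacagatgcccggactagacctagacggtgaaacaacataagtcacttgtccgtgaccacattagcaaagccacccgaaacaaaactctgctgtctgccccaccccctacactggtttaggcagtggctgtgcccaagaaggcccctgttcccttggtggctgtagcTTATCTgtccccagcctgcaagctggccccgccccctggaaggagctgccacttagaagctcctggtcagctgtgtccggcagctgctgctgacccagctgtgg
Cish: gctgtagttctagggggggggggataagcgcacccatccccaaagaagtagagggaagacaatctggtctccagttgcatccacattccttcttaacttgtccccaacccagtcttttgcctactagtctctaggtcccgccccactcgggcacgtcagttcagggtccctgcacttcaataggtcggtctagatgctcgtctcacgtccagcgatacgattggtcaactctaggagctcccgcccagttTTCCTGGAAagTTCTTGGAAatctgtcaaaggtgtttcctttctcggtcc
Socs3: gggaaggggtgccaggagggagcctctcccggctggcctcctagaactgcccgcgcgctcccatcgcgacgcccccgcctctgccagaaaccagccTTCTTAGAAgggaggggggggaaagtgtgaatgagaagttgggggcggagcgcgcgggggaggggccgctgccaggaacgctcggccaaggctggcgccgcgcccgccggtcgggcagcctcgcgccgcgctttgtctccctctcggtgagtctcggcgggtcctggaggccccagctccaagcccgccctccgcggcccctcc
The Cish window held 2 matches of the STAT element, at bases 251 to 259 and 262 to 270, right at the start site, and 0.457% of the 32851 windows of all genes held 2 or more. Socs3 held 1, at bases 97 to 105, and 8.30% of all windows held at least 1. The GATA motif of Epor, on the minus strand at bases 197 to 202, was in 11.2% of all windows. A KLF motif, CCNCNCCC on either strand, was in 49.5% of all windows and is not marked. None of the marked matches overlapped a KLF match. A match is a description of the letters and not a site shown to be bound.

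Kitl, which encodes the KIT ligand stem cell factor (ENSMUSG00000019966.18, chr10:100015630-100100416, plus strand), stood at 1117, 1396, 1232 and 2085 normalized counts across WT replicates 1 to 4 and at 1961, 1219, 783 and 1058 across DKO replicates 1 to 4. The groups overlapped, and both were widely spread, with coefficients of variation of 29.8% and 40.1%. For Kitl, edgeR gave a log2 fold change of -0.22 ± 0.29 (SE, adjusted p = 0.633). It was -0.51 without DKO replicate 1 and 0.00 without WT replicate 4, the libraries with the highest Kitl of their groups. Kitl is made by niche cells. DKO replicate 1, highest in Kitl among the DKO libraries, was also highest in the 10 mesenchyme markers, which summed to 3505 to 7156 in WT and 14310 to 48978 in DKO, with 8 of them higher and 0 lower. DKO replicate 3, lowest in Kitl, was lowest in the 10 hepatoblast markers (174826 normalized counts, against 417481 to 626264 in the other DKO libraries and 514902 to 712492 in WT). The order did not hold for every library. DKO replicate 2 had the lowest mesenchyme sum in DKO (14310) but more Kitl (1219) than DKO replicates 3 and 4. WT replicate 4 had the highest Kitl of all libraries (2085), with a mesenchyme sum of 6655, below every DKO library. The 10 endothelial markers summed to 4670 to 6201 in WT and 2380 to 3444 in DKO. Pecam1, Tie1 and Erg were lower, 0 were higher and 7 did not pass. Among those 7 were Kdr (means of 574 in WT and 507 in DKO) and Cdh5, which was low in both (46.7 and 36.7). The part of these cells in the level of Kitl was not tested.

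**Figure D2:**
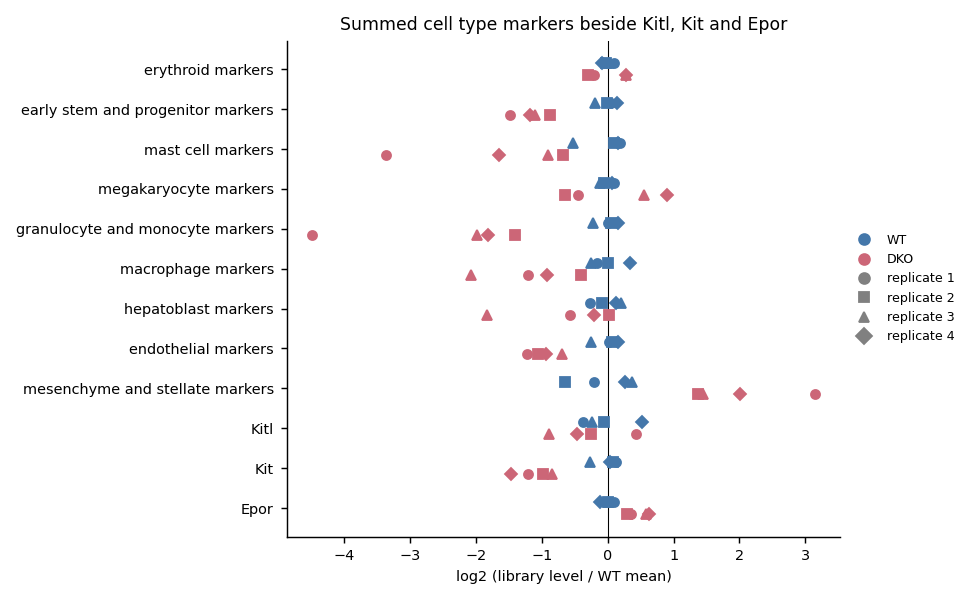
Summed normalized counts of each cell type marker list, and the counts of Kitl, Kit and Epor, as log2 of each library over the WT mean, with WT in blue, DKO in red and a marker shape for each replicate number. Sums of mesenchyme markers lie higher in every DKO library. Those of granulocyte, macrophage, mast cell, progenitor and endothelial markers lie lower in every DKO library, as Kit does, while erythroid sums overlap. Single markers can differ from their sum, and without Cpa3 the mast cell sums overlap.

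Of the signal carriers, Jak2 (ENSMUSG00000024789.12, chr19:29251828-29313080, plus strand), the kinase that EPOR relies on, stood at 1400, 1612, 1409 and 1459 normalized counts across WT replicates 1 to 4 and at 1284, 1141, 1542 and 1586 across DKO replicates 1 to 4. The groups overlapped and edgeR put the log2 fold change at -0.08 ± 0.13 (SE, adjusted p = 0.682). Its sign turned under upper-quartile scaling, to 0.02, and with DKO replicate 3 as the only DKO library, to 0.05.

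Stat5b (ENSMUSG00000020919.11, chr11:100780731-100850724, minus strand) stood at 3112, 2921, 2759 and 3229 normalized counts across WT replicates 1 to 4 and at 2163, 2386, 2550 and 2339 across DKO replicates 1 to 4. All DKO libraries lay below WT, by a small margin at the nearest pair. For Stat5b, edgeR gave a log2 fold change of -0.35 ± 0.09 (SE, adjusted p = 0.0212), but the adjusted p was over 0.05 with upper-quartile scaling (0.0551), without WT replicate 1, 2 or 4 (0.0502 to 0.0641) and with the replicate number as a block (0.0771). With DKO replicate 3 as the only DKO library the log2 fold change was -0.25. Its neighbour and close relative Stat5a (ENSMUSG00000004043.14, chr11:100859351-100885169, plus strand) had 3657, 3285, 3167 and 3266 in WT and 2284, 2812, 3152 and 1978 in DKO. These groups did not overlap either, although DKO replicate 3 nearly reached the lowest WT library. The log2 fold change of Stat5a was -0.39 (standard error 0.14, edgeR adjusted p = 0.0769), and its adjusted p was 0.0434 with DESeq2 and 0.0271 with edgeR without DKO replicate 3.

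The ratio of Stat5a to Stat5b, on the log2 scale, was 0.15 ± 0.10 for WT and 0.09 ± 0.24 for DKO (SD, n = 4 each; exact two-sided permutation test, p = 0.771), so that no shift between the paralogs was detected. Reads of such similar genes may be shared. Exons of Stat5a also overlap those of Stat3 on the opposite strand, and since the sources used here do not say whether counting used strand, reads of Stat3, which fell in DKO, may be counted for Stat5a.

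Of the feedback targets, Socs3 (ENSMUSG00000053113.3, chr11:117966079-117970047, minus strand), which blocks JAK2 and is induced by several cytokines and by interferon, changed most among the 10 members on the log2 scale. It stood at 139, 82.6, 108 and 121 normalized counts across WT replicates 1 to 4 and at 460, 242, 315 and 303 across DKO replicates 1 to 4. Every DKO library was well above WT, with DKO replicate 1 the highest. For Socs3, edgeR gave a log2 fold change of 1.55 ± 0.28 (SE, adjusted p = 0.00685), 1.35 without DKO replicate 1 (adjusted p = 0.00663) and 1.47 with DKO replicate 3 as the only DKO library.

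Socs2 (ENSMUSG00000020027.18, chr10:95385362-95417180, minus strand), which restrains growth hormone and related receptors, stood at 402, 294, 496 and 371 normalized counts across WT replicates 1 to 4 and at 1018, 610, 902 and 649 across DKO replicates 1 to 4. The groups did not overlap. For Socs2, edgeR gave a log2 fold change of 1.02 ± 0.23 (SE, adjusted p = 0.0138). It was 0.88 without DKO replicate 1 (edgeR adjusted p = 0.0197). Within DKO, Socs2 and Socs3 were both highest in replicate 1 and lowest in replicate 2, as was the mesenchyme marker sum (48978 and 14310). Replicates 3 and 4 differed in order, as both genes were higher in replicate 3 and the sum in replicate 4 (15039 and 22266). The part of such cells in the rise of Socs2 and Socs3 was not tested.

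Cish (ENSMUSG00000032578.7, chr9:107296026-107302784, plus strand), whose product binds phosphorylated EPOR and whose promoter holds the paired STAT element shown above, stood at 248, 245, 362 and 261 normalized counts across WT replicates 1 to 4 and at 544, 334, 391 and 697 across DKO replicates 1 to 4. Of the DKO libraries, 3 were above every WT library and replicate 2 was not. The log2 fold change of 0.82 (standard error 0.27) missed the threshold (edgeR adjusted p = 0.0560; exact two-sided permutation test, p = 0.0571). With DESeq2 its adjusted p was 0.0172, and 5 other alternatives among 17 brought it under 0.05.

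Pim1 (ENSMUSG00000024014.7, chr17:29490753-29496112, plus strand) stood at 4421, 3528, 4463 and 4355 normalized counts across WT replicates 1 to 4 and at 3750, 6654, 4556 and 7762 across DKO replicates 1 to 4. The DKO libraries were split, with replicates 2 and 4 high and replicates 1 and 3 near WT. For Pim1, edgeR gave a log2 fold change of 0.44 ± 0.21 (SE, adjusted p = 0.163), and without DKO replicate 1 it was 0.60 with an adjusted p of 0.0312. The 4 targets therefore did not vary together among the DKO libraries. Socs2 and Socs3 were highest in replicate 1, and Cish and Pim1 in replicate 4.

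**Figure D3:**
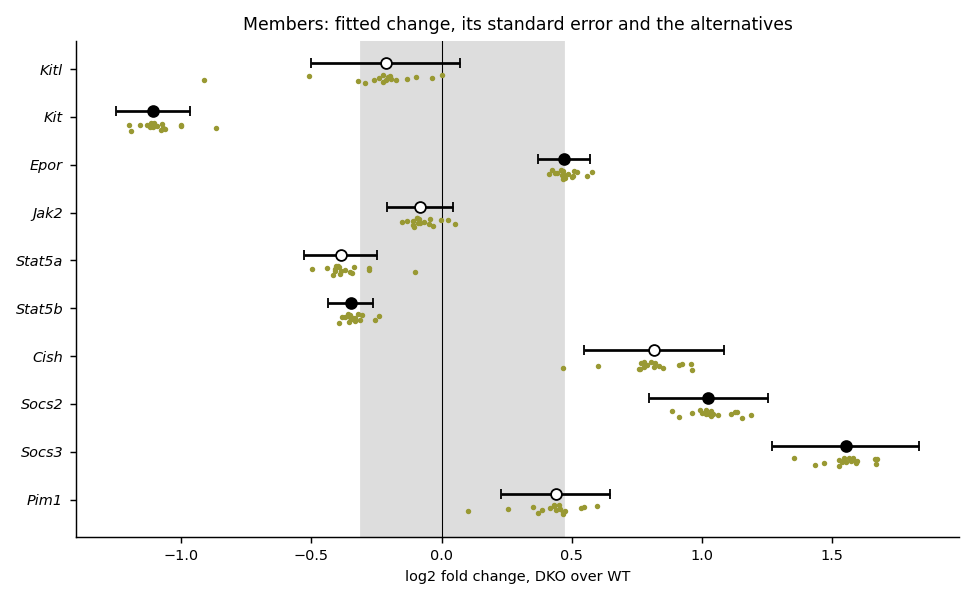
Log2 fold change of each member, DKO over WT, as a circle with its standard error (filled where the edgeR adjusted p is under 0.05), and below it the values under the alternatives as small points; the grey band holds the range between the lower and upper quartiles of all genes tested, from -0.31 to 0.47. Kit lies between -1.20 and -0.87 and Socs3 between 1.35 and 1.67 over the alternatives, whereas Jak2 stays near 0 and Kitl spreads from -0.91 to 0.00.

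Divided by exon length, taken as the union of all annotated exons, the levels were compared between genes. This length was 8911 bases for Kit and 1989 for Epor, and the order depends on it. Before the division, Kit lay above Epor in WT, with means of 8763 and 2419 normalized counts. Other lengths, such as that of a single transcript, were not tried. In WT, Pim1 and Epor were the most abundant members, with 1247 ± 132 and 1216 ± 72.4 normalized counts per kb (SD, n = 4), above 86.8% and 86.6% of all genes tested, and they overlapped. Kit followed with 983 ± 114, clear of both Epor and the next gene, Stat5b, with 543 ± 37.5. Stat5a (469 ± 30.1) overlapped with Stat5b, and Jak2 (292 ± 19.5) with Kitl (247 ± 73.4). Cish, Socs2 and Socs3 were the lowest, with 43.5, 41.0 and 38.9 per kb, and did not differ beyond their spread.

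In DKO the order changed only within the last 3 places, where Cish and Socs3 traded places and Socs2 stayed between them. Pim1 (1690 ± 550 normalized counts per kb) and Epor (1683 ± 198; SD, n = 4) again overlapped at the top. Kit, at 456 ± 83.9, no longer stood clear of Stat5b (426 ± 28.7), as the ranges of these genes now overlapped, and Kit passed from above 84.0% to above 73.5% of genes. Those places were held by Socs3 (114 ± 32.0), Socs2 (83.4 ± 20.7) and Cish (76.5 ± 25.5), and the ranges of neighbours among them overlapped, as they had in WT. Of all neighbours in this order, only Epor and Kit did not overlap in DKO.

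The other genes of the pathway, in 7 lists by role, held 112 genes, and all of them were tested. Of these, 11 rose and 26 fell in DKO, beside the 10.7% and 10.8% of all genes given above, and 75 did not pass. Their median log2 fold change was -0.11. Without DKO replicate 1, 12 rose and 29 fell. Without WT replicate 1 or 4, 6 rose and 17 fell, and without WT replicate 2, 6 rose and 19 fell.

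Among the ligands and receptors related to the pathway, 2 of 15 genes fell (10.8% of all genes) and 0 rose (10.7%). The other 13 did not pass. The median log2 fold change of -0.77 was the value of Prlr, named after its values were seen. Its counts were near the floor, with means of 16.3 in WT and 9.40 in DKO. Flt3, another receptor tyrosine kinase of early progenitors, fell from 2320 ± 435 normalized counts to 420 ± 254 (SD, n = 4 each; log2 fold change -2.47, edgeR adjusted p = 0.0137). The ligand genes were low. Epo was at 70.2 ± 26.1 normalized counts in WT libraries and 40.2 ± 24.5 in those of DKO, and Thpo, which encodes thrombopoietin, 279 ± 76.4 and 144 ± 91.9 (SD, n = 4 each), without passing the test (edgeR adjusted p = 0.358 and 0.189).

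The other JAK and STAT genes were lower as a group, with 6 of 8 falling (10.8% of all genes), 1 rising (10.7%) and a median log2 fold change of -0.63. Jak1, the kinase shared by many cytokine receptors, fell from 7497 ± 799 normalized counts to 4770 ± 363 (SD, n = 4 each; log2 fold change -0.65, edgeR adjusted p = 0.00348). Jak3, Stat6 and Stat3 had log2 fold changes of -1.03, -0.79 and -0.60 (edgeR adjusted p = 0.00531, 0.00633 and 0.0137). Stat2, the only gene of this list that did not pass and named after its values were seen, was at -0.14, and Jak2, described above, at -0.08.

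Adaptors and kinases next to the receptors fell in 7 of 17 cases (10.8% of all genes) and rose in 1 (10.7%). The Fes, Btk and Vav1 transcripts, which encode signalling proteins shared with myeloid cells, had log2 fold changes of -1.39, -0.94 and -0.72 (edgeR adjusted p = 0.00707, 0.00749 and 0.00918). The summed markers of granulocytes and monocytes fell beside them, from 103823 to 135268 normalized counts in WT to 5399 to 45776 in DKO. Of 8 tested, 5 were lower and 0 higher, and Ly6g was at 0 in every library. Most of the sum was Mpo, and without it the sums were 12375 to 14690 in WT and 1570 to 9520 in DKO. S100a8 (means of 40.1 in WT and 110 in DKO) and S100a9 (13.0 and 14.6) were low and did not fall. The 10 macrophage markers summed to 4881 to 7388 in WT and 1376 to 4388 in DKO, with 1 of 9 tested lower. The lineage markers of the sort include CD11b and Ly6G/C, which such cells carry. The part of such cells was not tested. Irs2, an adaptor of the insulin receptor that EPOR also uses, was the 1 that rose, from 772 ± 153 to 1669 ± 397 (SD, n = 4 each; log2 fold change 1.11, edgeR adjusted p = 0.00598).

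Among the inhibitors and phosphatases, 1 of 19 rose (10.7% of all genes) and 3 fell (10.8%). Socs1, a further JAK inhibitor and a target of interferon, was the 1 that rose, with 175, 166, 168 and 177 normalized counts across the WT replicates and 788, 281, 288 and 475 across those of DKO (log2 fold change 1.42 ± 0.34 SE, edgeR adjusted p = 0.0179). Its WT libraries were nearly equal and every DKO library was above them, with DKO replicate 1 again the highest. The genes that fell were Pias1, a STAT inhibitor (log2 fold change -0.75, edgeR adjusted p = 0.00166), Inpp5d, which encodes the lipid phosphatase SHIP1 (-0.73, adjusted p = 0.0179), and Ptpn6, which encodes SHP-1, the phosphatase that switches off EPOR and KIT (-0.67, adjusted p = 0.0187). The calls of Socs1, Inpp5d and Ptpn6 were lost without WT replicate 1, 2 or 4, with edgeR adjusted p-values between 0.0509 and 0.0590. With DKO replicate 3 as the only DKO library, Socs1 had a log2 fold change of 0.73.

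**Figure D4:**
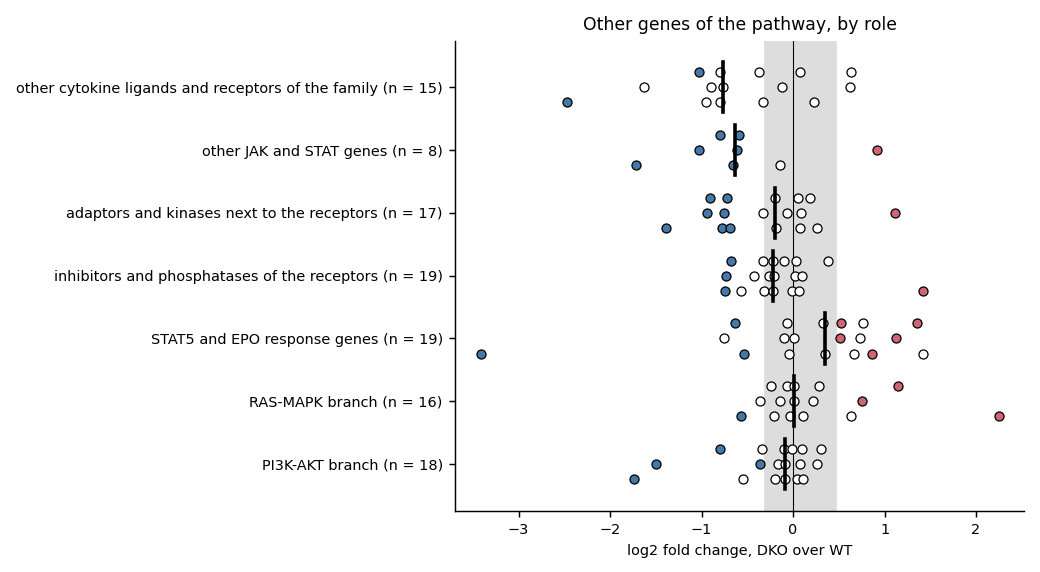
Log2 fold change, DKO over WT, of each other pathway gene by role, with genes past an edgeR adjusted p of 0.05 filled (red higher, blue lower), the list median as a black bar, and the range between the quartiles of all genes tested in grey (-0.31 to 0.47); vertical position within a list has no meaning. Ligands and receptors and JAK and STAT genes lie mainly to the left, with medians of -0.77 and -0.63. The first of these medians is the value of Prlr, whose counts were near the floor. The STAT5 and EPO response genes are spread on both sides.

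The STAT5 and EPO response genes went both ways, with 5 of 19 rising (10.7% of all genes), 3 falling (10.8%) and a median log2 fold change of 0.34. Id1 and Ccnd2, the latter encoding cyclin D2, rose with log2 fold changes of 0.86 and 0.51 (edgeR adjusted p = 0.00440 and 0.00560), as did Cdkn1a, which encodes the cell cycle inhibitor p21, with 1.13 (adjusted p = 0.00953). Myc, a driver of growth and proliferation, fell from 28612 ± 1614 normalized counts to 18437 ± 1413 (SD, n = 4 each; log2 fold change -0.63 ± 0.08 SE, edgeR adjusted p = 0.00227), and Bcl2l1, which encodes the survival factor BCL-XL, from 4638 ± 396 to 3193 ± 844 (log2 fold change -0.54, edgeR adjusted p = 0.0437). Bcl2l1 was named after its values were seen. With DKO replicate 3 as the only DKO library, Id1 had a log2 fold change of 0.49.

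Downstream of the receptors, the RAS-MAPK branch had 3 of 16 genes higher (10.7% of all genes) and 1 lower (10.8%). Etv4, a transcription factor induced by MAPK signalling, rose from 66.2 ± 17.7 to 315 ± 144 normalized counts, Spry2, a feedback inhibitor of the branch, from 344 ± 69.96 to 762 ± 289, and Hras from 704 ± 131 to 1188 ± 163 (SD, n = 4 each; log2 fold changes 2.25, 1.15 and 0.75; edgeR adjusted p = 0.00481, 0.0228 and 0.0128). Nras fell by 0.57 on the log2 scale (edgeR adjusted p = 0.00965). The calls of Spry2 and Hras were lost without WT replicate 1 (edgeR adjusted p = 0.0735 and 0.0523), and that of Spry2 also without WT replicate 2 or 4 (0.0659 and 0.0526) or DKO replicate 4 (0.0533). With DKO replicate 3 as the only DKO library, Spry2 and Nras had log2 fold changes of 0.28 and -0.30, and Vav1, among the adaptors, one of -0.47.

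In the PI3K-AKT branch 4 of 18 genes fell (10.8% of all genes) and 0 rose (10.7%). Pik3r1, the main regulatory subunit of PI3K, fell from 3009 ± 253 normalized counts to 1730 ± 252 (SD, n = 4 each; log2 fold change -0.80, edgeR adjusted p = 0.00366), and Pik3cg and Pik3r5, subunits of the form of PI3K used by blood cells, fell with log2 fold changes of -1.49 and -1.74 (edgeR adjusted p = 0.00618 and 0.00902). Tsc2, a brake on mTOR, fell by 0.36 on the log2 scale (edgeR adjusted p = 0.0485), and its call was lost in 12 of 17 alternatives, among them those without any 1 WT library or without DKO replicate 2 or 3, with an adjusted p of up to 0.154.

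Genes with a pattern like that of Kit were sought over the 8 libraries among 12338 genes with a mean of at least 100 normalized counts. The highest Pearson correlations of log2 CPM were those of Chp1 (r = 0.998), Ints9 (0.995), Mc5r (0.993), Sf3b3 (0.992) and Men1 (0.992), all lower in DKO. These points share the division into WT and DKO, and the correlation is a description only. Among the members, Stat5b (0.940) and Stat5a (0.895) had the most similar pattern and Cish (-0.918) and Socs3 (-0.889) the most opposed.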

How the data were processed

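The authors trimmed the reads with fastp 0.21.0, mapped them to mm10 (the same build as GRCm38) with HISAT2 2.2.1, removed alignments of quality below 20, and deposited whole-number counts per gene from StringTie 1.3.3b and prepDE, neither normalized nor pooled. prepDE works back from coverage, so totals can differ from read numbers. Groups and replicate numbers are those of the labels. Of 52636 gene identifiers, 52489 matched GENCODE M21 by identifier without version.

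Counts were tested here in R 4.3.3 with edgeR 4.0.16 (limma 3.58.1): filterByExpr, TMM, and the robust quasi-likelihood test of DKO against WT with Benjamini-Hochberg adjustment. Levels per kb used the union of exons. The Kit to Gata1 and Stat5a to Stat5b ratios were tested by exact permutation over 70 arrangements, as was Cish. The members and lists were chosen with earlier results of these data known. Named pathway genes were up to 4 per list with the smallest p among those passing, plus Epo, Thpo, Socs1 and Stat3 whatever their values; some list members are not reported here. Alternatives were DESeq2 1.42.0, other scalings and filters, removal of hemoglobin genes, protein-coding genes only, each library left out, a replicate block, a fold threshold and, chosen after seeing the data, DKO replicate 3 alone. The fit was checked on simulated counts. Libraries of a genotype differed by a chi-square of at least 18.5 per gene, so none was a copy. The spread between libraries, not counting error, limited precision, since each member had at least 96 counts per library. The listed Flt3lg was matched by its older symbol Flt3l.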

Additional observations from a re-analysis of the deposited data

Results flagged for a closer look

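In 5 of 102 tests of 4 libraries of a genotype, 1 library lay far from the other 3 by Dixon's ratio of the gap to the range (critical value 0.829), which chance alone gives in about 1 of 20 groups. Cish was at 362 normalized counts in WT replicate 3 and at 245 to 261 in the other WT libraries (ratio 0.862). Pim1 was at 3528 in WT replicate 2 and at 4355 to 4463 in the others (ratio 0.885). The summed mast cell markers were at 4668 in WT replicate 3 and at 7212 to 7662 in the others (ratio 0.850). In DKO replicate 1, Etv4 was at 530 normalized counts, against 228 to 265 in the other DKO libraries (ratio 0.875), and Ccnd2 at 23652, against 19711 to 20126 (ratio 0.895).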

How the results depend on the processing

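Kit, Epor, Socs2 and Socs3 kept their direction in all 17 alternatives and their side of the threshold in the 16 that keep 3 or more libraries a group, with log2 fold changes of -1.20 to -0.87, 0.41 to 0.58, 0.88 to 1.19 and 1.35 to 1.67. Stat5b kept its direction and lost its call in 6. The sign of Jak2 turned with upper-quartile scaling (0.0244) and with DKO replicate 3 alone (0.0499), and that of Kitl without WT replicate 4 (0.00059, against -0.508 without DKO replicate 1), all without a call. Upper-quartile scaling moved the median of all genes by 0.11 on the log2 scale, so that 66.7% of calls were higher in DKO instead of 49.9%. It left 1242 genes lower and 1 member lower. Over all genes, 1867 were higher and 1878 lower. Requiring a log2 fold change beyond 1 gave 1076 higher and 423 lower, with 1 member lower, and 6 other pathway genes higher and 8 lower. DESeq2 called 2777 higher and 2658 lower. Over the fits that each lacked 1 library, 858 to 1915 genes were higher and 898 to 2012 lower, 1 to 3 members were lower, and of the other pathway genes 6 to 12 were higher and 17 to 29 lower. The counts over all genes were lowest without WT replicate 1 (858 and 898), 2 (1011 and 1050) or 4 (948 and 957), and each of these left 1 member lower. The cause was not tested. DKO replicate 3 alone left 1 member lower, namely Kit, but this fit assumes that the lone library varies like the WT libraries, and its calls are no support.

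The replicate numbers did not pair the libraries. The correlation of deviations between libraries of the same number was -0.089 to 0.043, and 0 of 4 WT libraries correlated best with the DKO library of their own number. With the replicate number as a block, edgeR called 1026 genes higher and 1083 lower and 1 member lower. Epor then had an adjusted p of 0.04999 and Stat5b of 0.0771, and the calls of Spry2 and Tsc2 were lost (0.0782 and 0.0875). The Kit to Epor and Kit to Gata1 ratios differed by -1.58 and -1.0 on the log2 scale with this pairing too. They are given without a paired test, since groups that do not overlap fix the exact sign-flip permutation p at 0.125.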
